A study of Mus musculus with 2 samples.

Results

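Retinoid genes encode the proteins that carry, take up, make, break down and sense vitamin A and its hormone, retinoic acid. The set described here holds 9 of them, Rbp4, Stra6, Crabp2, Aldh1a1, Aldh1a2, Cyp26a1, Rara, Rarb and Rarg, of 12393 genes named on the arrays. The members were taken by symbol, as every probe set that the platform annotation ties to that symbol alone, which gave 10 probe sets, 2 for Rarg and 1 for each other gene. They were measured in stromal cells, the connective tissue cells under the uterine epithelium, isolated by enzymatic digestion of uterine horns on day 5 of pregnancy. One array held RNA of cells pooled from 3 knockout-labelled mice, and the other held RNA of cells pooled from 3 floxed control mice.

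The labels name different genes as the target. The titles give Hif1 cKO and Hif1 flox control, the genotype field gives Hif2 alpha-null and Hif2 alpha-intact, and the breeding note gives Hif1 floxed mice crossed with PRcre mice to ablate Rac1. PRcre expresses the Cre recombinase from the progesterone receptor gene, which is active in uterine stroma and epithelium, so deletion need not be limited to stromal cells. The ages of the mice are not given in the sources used here. Epas1, which encodes Hif2 alpha, had a signal of 78.1 on the knockout-labelled array and 59.4 on the control array. At the brightest probe set of each, Hif1a read 1544 on the knockout-labelled array and 721 on the control array, and Rac1 read 757 on the knockout-labelled array and 1038 on the control array. The other measured probe sets went the same way, with log2 ratios of 1.38 and 0.52 for Hif1a, and for Rac1 signals of 332 on the knockout-labelled array and 664 on the control array, 50.0% of control. Where these probes lie relative to the deleted exons was not analysed here, and a probe outside them checks no genotype. As each group has 1 array, no difference could be tested, and each value describes these 2 arrays.

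Retinol travels in blood on retinol binding protein, enters cells through the receptor Stra6 or by diffusion, and is oxidised first to retinaldehyde and then to retinoic acid. Retinoic acid binds the receptors RAR alpha, beta and gamma, which sit on DNA as partners of retinoid X receptors, and Cyp26 enzymes clear it. In the mouse uterus, retinoid enzymes and binding proteins are known to respond to ovarian steroids, stromal cells make retinoic acid, and Cyp26a1 is best known from the luminal epithelium around implantation.

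The receptors bind pairs of a short core site, classically 2 copies in a row with a spacer of 5 bases. Cyp26a1 and Rarb are textbook targets with such an element near the gene's start. Their promoters are shown because, of the members searched, only theirs held this repeat. Each window runs from 250 bases before to 50 bases after the gene's start, read 5′ to 3′ on the gene's strand from RefSeq on GRCm38.p6, with the direct repeat in capitals. The Rarb window lies at chr14:16575427-16575726 on the minus strand and the Cyp26a1 window at chr19:37697558-37697857 on the plus strand.
Rarb: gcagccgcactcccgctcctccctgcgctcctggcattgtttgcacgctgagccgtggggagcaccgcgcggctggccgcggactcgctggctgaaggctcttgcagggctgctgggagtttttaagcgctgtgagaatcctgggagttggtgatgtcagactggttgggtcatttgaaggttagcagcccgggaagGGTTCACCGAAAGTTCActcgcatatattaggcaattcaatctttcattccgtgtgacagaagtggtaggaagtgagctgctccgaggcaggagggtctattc
Cyp26a1: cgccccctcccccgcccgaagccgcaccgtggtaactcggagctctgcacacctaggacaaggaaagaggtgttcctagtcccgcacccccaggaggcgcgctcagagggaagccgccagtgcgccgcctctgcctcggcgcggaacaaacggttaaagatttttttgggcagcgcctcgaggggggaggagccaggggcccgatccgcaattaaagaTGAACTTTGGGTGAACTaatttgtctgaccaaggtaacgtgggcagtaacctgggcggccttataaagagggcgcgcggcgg
In Rarb the repeat reads along the gene's strand, with 36 bases between it and the start. In Cyp26a1 it lies on the opposite strand, with 15 bases between it and the start.

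The search ran on both strands and took each core site as AGGTCA, as AGTTCA, as GGGTCA or as GGTTCA. A repeat with a spacer of 5 was found in 32 of 32851 RefSeq promoters (0.0974%), and a repeat with a spacer of 2 in 88 (0.268%). Of the 9 members, 8 matched the promoter table, with 17 windows between them. The repeat with a spacer of 5 was in 2 of these windows, those shown, and the repeat with a spacer of 2 was in none. A match describes these letters and is not evidence of binding in these cells.

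Signals are MAS5 intensities, the Affymetrix summary of a probe set in arbitrary units, and they were compared only between arrays for the same probe set. Signals below 19.7, the 40th percentile of both arrays pooled, were raised to that floor, and log2 ratios are given as knockout-labelled minus control. Where 1 array was at the floor the ratio is a bound, and where both were there is no ratio. Of the 9 members, 5 were above the floor on both arrays, 2 on 1 array and 2 on neither. For error, the arrays offer only the scatter among probe sets of a gene, which came to an SD of 0.64 per probe set on the log2 ratio scale over 2660 genes and does not cover animals, pools, labelling or arrays.

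**Figure D1:**
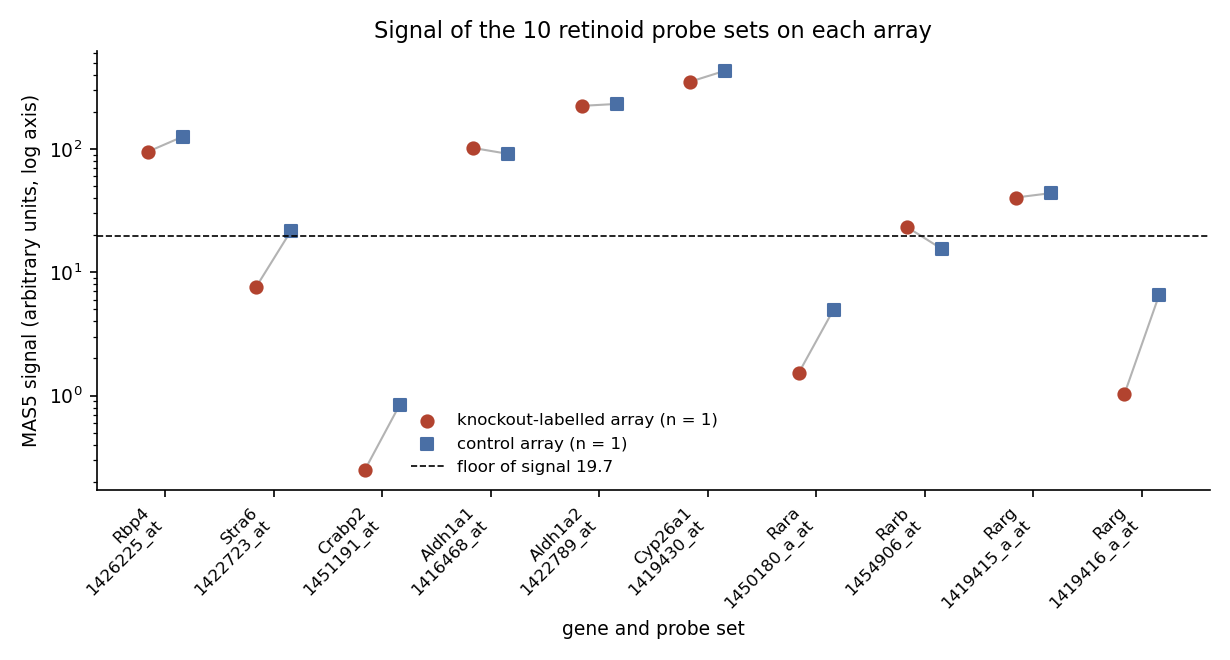
MAS5 signal on a log axis for the 10 retinoid probe sets, with the knockout-labelled array as circles on the left and the control array as squares on the right of each pair (n = 1 array each, no error bars). Rbp4, Aldh1a1, Aldh1a2, Cyp26a1 and the brighter Rarg probe set lie above the floor of 19.7 (dashed) on both arrays, and Crabp2, Rara and the other Rarg probe set lie under it on both.

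Among the proteins that bring retinoids to and into cells, the carrier was measured on both arrays and the uptake receptor on 1. Rbp4, the carrier of retinol in blood, had a signal of 94.9 on the knockout-labelled array and 125.6 on the control array, a log2 ratio of -0.40. This was the lowest ratio among the 5 members measured on both arrays, and its size is below the probe set SD of 0.64. Stra6, the cell surface receptor for the Rbp4 protein, had signals of 7.64 on the knockout-labelled array and 21.7 on the control array. The knockout-labelled value is under the floor and the control value just above it, so Stra6 is at least 1.1-fold lower. How much lower depended on the floor, since the log2 ratio was -1.51 with a floor at the 25th percentile (a signal of 6.81) and -1.10 with a pseudocount of 4.70 and no floor. Crabp2, which hands retinoic acid to the receptors inside the cell, had signals of 0.249 and 0.836 on the knockout-labelled and control arrays, both under the floor. A signal this low does not show that the gene is silent.

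Both measured enzymes of retinoic acid synthesis stood close to equal on the arrays. Aldh1a1, a retinaldehyde dehydrogenase, had a signal of 101.8 on the knockout-labelled array and 91.2 on the control array, a log2 ratio of 0.16. Aldh1a2, the main retinaldehyde dehydrogenase of the mouse embryo, had signals of 223.6 on the knockout-labelled array and 231.7 on the control array, a log2 ratio of -0.05. This was the smallest difference among the 5 members measured on both arrays. The sign of the Aldh1a2 ratio was not settled, as quantile normalization gave 0.06, median centring 0.23 and removal of the trend of ratio with signal 0.03. Cyp26a1, the cytochrome P450 that oxidises and clears retinoic acid, had signals of 351.4 on the knockout-labelled array and 431.0 on the control array, a log2 ratio of -0.29. It was well above the floor on both arrays, and its ratio was negative under all 6 alternatives of scale or floor, from -0.31 to -0.02. Epithelial markers were mixed, with 8 of 15 compared lower and 7 higher and a median log2 ratio of -0.39. Of the 15, 4 were at least 2-fold lower (13.0% of all genes were) and 1 at least 2-fold higher (6.21%). The 4 were Krt18, Cldn10, Cldn3 (-1.74) and Cldn4 (-1.26). The summed signal of the epithelial markers was 2386 on the knockout-labelled array against 3206 on the control array. That difference came mostly from Krt18 (176 against 810) and Cldn10 (184 against 602). Krt8 (0.64), Cdh1 (0.58), Foxa2 (0.75) and Ehf (1.37) were among those with log2 ratios above 0. These markers were picked out after their values were seen, and the part of epithelium in the Cyp26a1 value was not tested.

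Of the 3 retinoic acid receptors, Rarg alone was above the floor on both arrays. It had signals of 40.4 on the knockout-labelled array and 43.8 on the control array at its brighter probe set, a log2 ratio of -0.12. That sign turned under quantile normalization (0.17), median centring (0.16) and trend removal (0.13). The other Rarg probe set was under the floor on both arrays, at 1.03 on the knockout-labelled array and 6.56 on the control array. Rarb, the receptor gene that carries the repeat printed above, had signals of 23.1 on the knockout-labelled array and 15.4 on the control array. With the control at the floor, Rarb is at least 1.17-fold higher, and the log2 ratio was 0.59 with the floor at the 25th percentile. Rara, the most widely expressed of the receptors in mouse tissues, had signals of 1.54 and 4.98 on the knockout-labelled and control arrays, both under the floor. Stra6, which only the control array measured, and Rarb, which only the knockout-labelled array measured, had to differ in the direction of the array that passed.

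Cyp26a1 and Rarb, the members whose promoters hold the repeat, lay on opposite sides of 0. Cyp26a1 was at -0.29 and Rarb at 0.23 or more, a Rarb value that rests on a signal of 23.1 against the floor of 19.7. The size of the Cyp26a1 ratio is below the probe set SD of 0.64. At this floor the Rarb bound could only lie above 0, as only the knockout-labelled array passed. The opposite sides are thus not a result about the repeat.

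With the floor at 19.7, no ratio or bound of a member was past 2-fold. Of the 7 members compared, 0 were at least 2-fold lower, where 13.0% of all 8593 genes compared were, and 0 were at least 2-fold higher, where 6.21% of all genes were. None was past 1.5-fold at that floor, where 44.9% of all genes were. Stra6 and Rarb are bounds, so for them these counts do not show that the difference was smaller, and Stra6 was past 2-fold lower with the lower floor (-1.51) and with the pseudocount (-1.10). The share of all genes past 2-fold, 19.2%, would be 1.35 genes among 7, and the share past 1.5-fold would be 3.14 genes, and no test set the members against all genes. The median log2 ratio of the 7 was -0.12, beside -0.10 over all genes compared, and 5 were lower and 2 higher by any amount, where 55.3% of all genes were lower. The 5 members above the floor on both arrays had the same median of -0.12, beside -0.08 for all genes above the floor on both. The values ran from -0.40 for Rbp4 to the bound of 0.23 for Rarb.

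**Figure D2:**
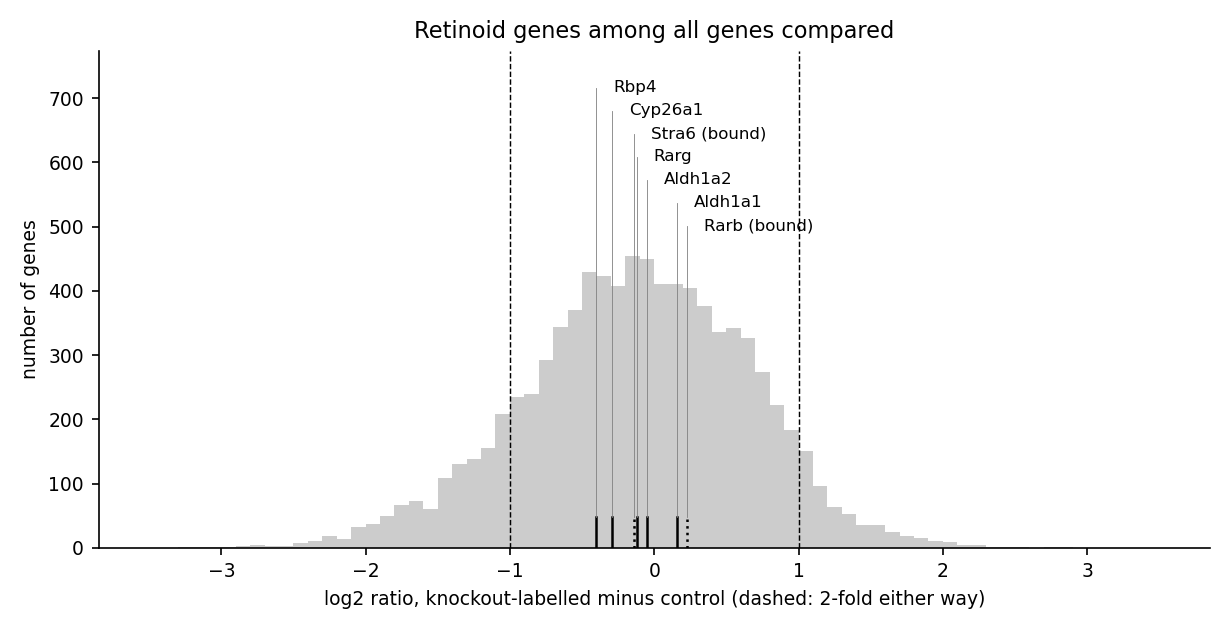
Histogram of the log2 ratio, knockout-labelled minus control, for all 8593 genes compared, at the brightest probe set of each gene, with the 7 retinoid members marked by lines (dotted for a bound) and 2-fold as dashed lines. The members lie between -0.40 and 0.23, on either side of the median of all genes at -0.10.

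The scaling of the arrays moved all genes by an amount comparable to the members' own ratios. The median of all genes was -0.10 as deposited and 0.16 after median centring, a shift that carried the members with it. As deposited, the median also varied with signal. It was -0.24 for genes with a mean signal of 19.7 to 43.4, -0.36 for 43.4 to 88.3 and 0.31 for those above 378. The median of the members, -0.12 as deposited, was 0.06 with quantile normalization, 0.19 with median centring and 0.03 with trend removal, so its sign was not settled. Median centring put Stra6 under the floor on both arrays, so the value of 0.19 leaves it out. Among genes past 2-fold, 32.3% were higher as deposited, against 46.3% with quantile normalization, 63.1% with median centring and 43.7% with trend removal. Rbp4 was negative and Aldh1a1 positive under each of the 6 alternatives, from -0.40 to -0.13 for Rbp4 and from 0.15 to 0.44 for Aldh1a1. Aldh1a2 changed sign under 3 of the 6, and Rarg under 3 of the 5 that measured it.

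**Figure D3:**
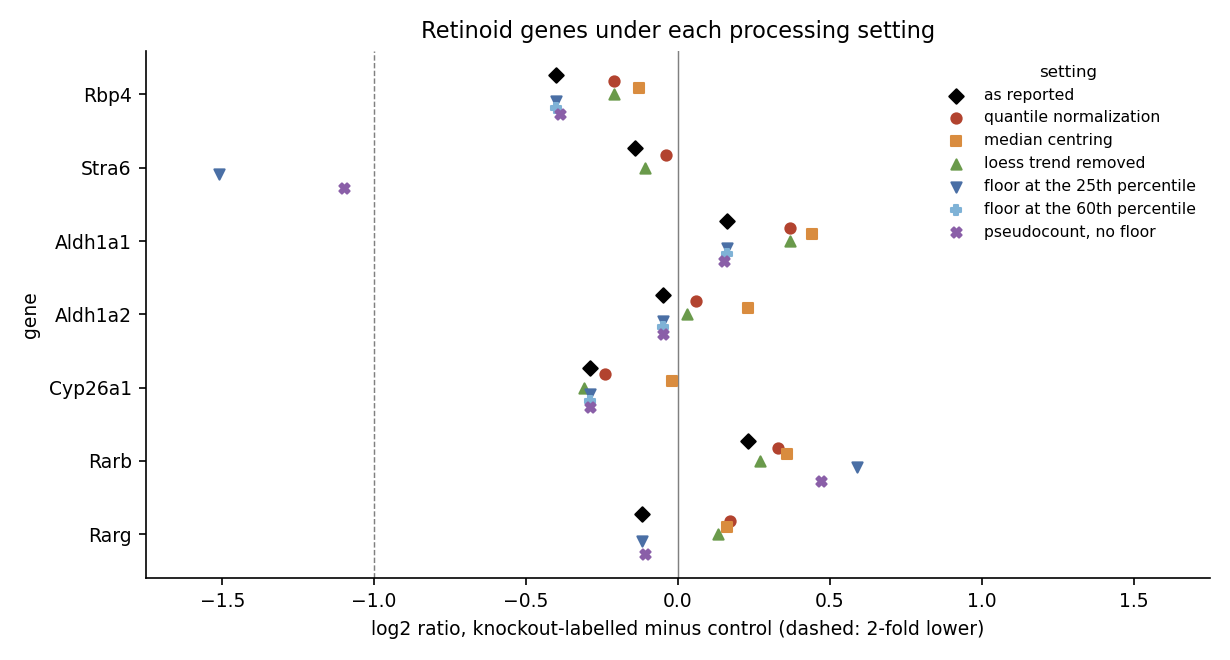
Log2 ratio, knockout-labelled minus control, of each member above the floor on at least 1 array, as reported (diamonds) and under each alternative of scale or floor (other symbols), 1 array per group. Stra6 alone passes 2-fold lower (dashed line), with the floor at the 25th percentile (-1.51) and with a pseudocount (-1.10), and Aldh1a2 and Rarg lie on both sides of 0.

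The remaining genes of the pathway were read in 5 lists with 57 genes on the arrays, of which 34 were compared. Of the 34, 2 were 2-fold higher or more and 4 were 2-fold lower or more, near the 6.21% and 13.0% of all genes, and their median log2 ratio was -0.15, beside -0.10 for all genes. Median centring raised the medians of the 4 lists with more than 1 gene compared to 1.09, -0.01, 0.00 and 0.28, in the order in which they follow.

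Carriers and storage genes, 6 compared, included 2 that were 2-fold higher or more (6.21% of all genes were) and 0 that were 2-fold lower (13.0%), and their median log2 ratio was 0.81. The 2 were Lrat, which passed the floor on the knockout-labelled array alone, and Fabp5, whose probe sets disagreed. Lrat, the enzyme that esterifies retinol for storage, read 51.4 on the knockout-labelled array and 9.11 on the control array. With the control at the floor, this is at least 2.61-fold higher. Lrat stayed past 2-fold under all 7 alternatives that measured it, and the alternative floor of 66.3 left it out. Wherever only the knockout-labelled array passed the floor, Lrat could only be higher, so its direction was fixed there, though not its size. Both of its signals were above the lower alternative floor of 6.81. Fabp5, a fatty acid binding protein that can also carry retinoic acid, read 1172 on the knockout-labelled array and 553 on the control array, a log2 ratio of 1.08 at the brighter of its probe sets. The dimmer one read 86.2 on the knockout-labelled array and 158.0 on the control array, a log2 ratio of -0.87, so Fabp5 had no settled direction. Ttr, transthyretin, the partner that keeps the Rbp4 protein in blood, read 564 on the knockout-labelled array and 345 on the control array at the brightest of its probe sets (log2 ratio 0.71), and the next gave 0.60. The third read 14.2 on the knockout-labelled array and 83.8 on the control array, at least 4.24-fold lower, so Ttr had no settled direction either. The median of the list was 0.29 with the median over probe sets and 0.28 without probe sets ending in _s_at or _x_at, which can match several transcripts.

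Retinol and retinaldehyde dehydrogenases, which set how much retinaldehyde reaches the Aldh1a enzymes, included 2 of 10 that were 2-fold lower or more, where 13.0% of all genes were, and 0 that were 2-fold higher, and their median log2 ratio was -0.25. Dhrs3, which reduces retinaldehyde back to retinol and is induced by retinoic acid, read 64.3 on the knockout-labelled array and 136.3 on the control array, a log2 ratio of -1.08. Rdh12, a retinal reductase best known from photoreceptors, had signals of 16.0 on the knockout-labelled array and 40.2 on the control array, at least 2.03-fold lower. Both were close to the 2-fold line and lay inside it with quantile normalization, median centring or trend removal, at -0.87 to -0.81 for Dhrs3 and -0.90 to -0.88 for Rdh12. Rdh10, the main retinol dehydrogenase of the mouse embryo, read 335.2 on the knockout-labelled array and 394.9 on the control array, a log2 ratio of -0.24 that median centring turned to 0.04.

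Few other genes of synthesis and breakdown could be read. Of 4 on the arrays, Cyp1b1 alone was above the floor, a P450 that can oxidise retinoids, with signals of 329.8 on the knockout-labelled array and 289.0 on the control array, a log2 ratio of 0.19. Its next probe set gave -0.13. Aldh1a3, the third retinaldehyde dehydrogenase, was at the floor on both arrays at all 3 of its probe sets. Cyp26b1 and Cyp26c1, the relatives of Cyp26a1, were not analysed here.

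Retinoid X receptors and coregulators, 9 compared, included 1 that was 2-fold lower or more, beside 13.0% of all genes, and 0 that were 2-fold higher, and their median log2 ratio was -0.28. Rxra, a partner of the retinoic acid receptors, had signals of 40.4 on the knockout-labelled array and 86.1 on the control array, a log2 ratio of -1.09. Quantile normalization gave -0.82, median centring -0.81 and trend removal -0.82, and the other probe set of Rxra gave a log2 ratio of -0.13 or lower. Rxrb read 108.3 on the knockout-labelled array and 173.8 on the control array (log2 ratio -0.68), and Rxrg was at the floor on both arrays.

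Genes known to respond to retinoic acid, 10 compared, included 2 that were 2-fold lower or more, beside 13.0% of all genes, and 0 that were 2-fold higher, and their median log2 ratio was 0.00. The list shares Dhrs3 with the dehydrogenases. Rarres2, which encodes the chemoattractant chemerin and is named for its induction by a synthetic retinoid, had signals of 318.5 on the knockout-labelled array and 775.2 on the control array, a log2 ratio of -1.28. Its other measured probe set read 86.4 on the knockout-labelled array and 808.3 on the control array (-3.23). All 7 alternatives that measured Rarres2 kept it at least 2-fold lower. Both measured probe sets end in _s_at, so the alternative without such probe sets gave no value. The remaining Rarres2 probe set was under the floor on both arrays, at 6.12 on the knockout-labelled array and 17.8 on the control array. Chosen after its values were seen, Tgm2, a transglutaminase induced by retinoic acid in many cells, gave log2 ratios of 0.71, 0.83 and 0.80 at 3 bright probe sets ending in _x_at and of -1.51 and -1.24 at 2 others, so it had no settled direction. Also so chosen, the homeobox genes Meis1 and Meis2 stood at 0.00 and -0.01, as deposited. Nrip1, shared with the coregulators and so chosen too, had log2 ratios of 0.58 at its brighter probe set and 1.21 at the dimmer. Of the 10 genes compared, 5 were higher and 5 lower by any amount.

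**Figure D4:**
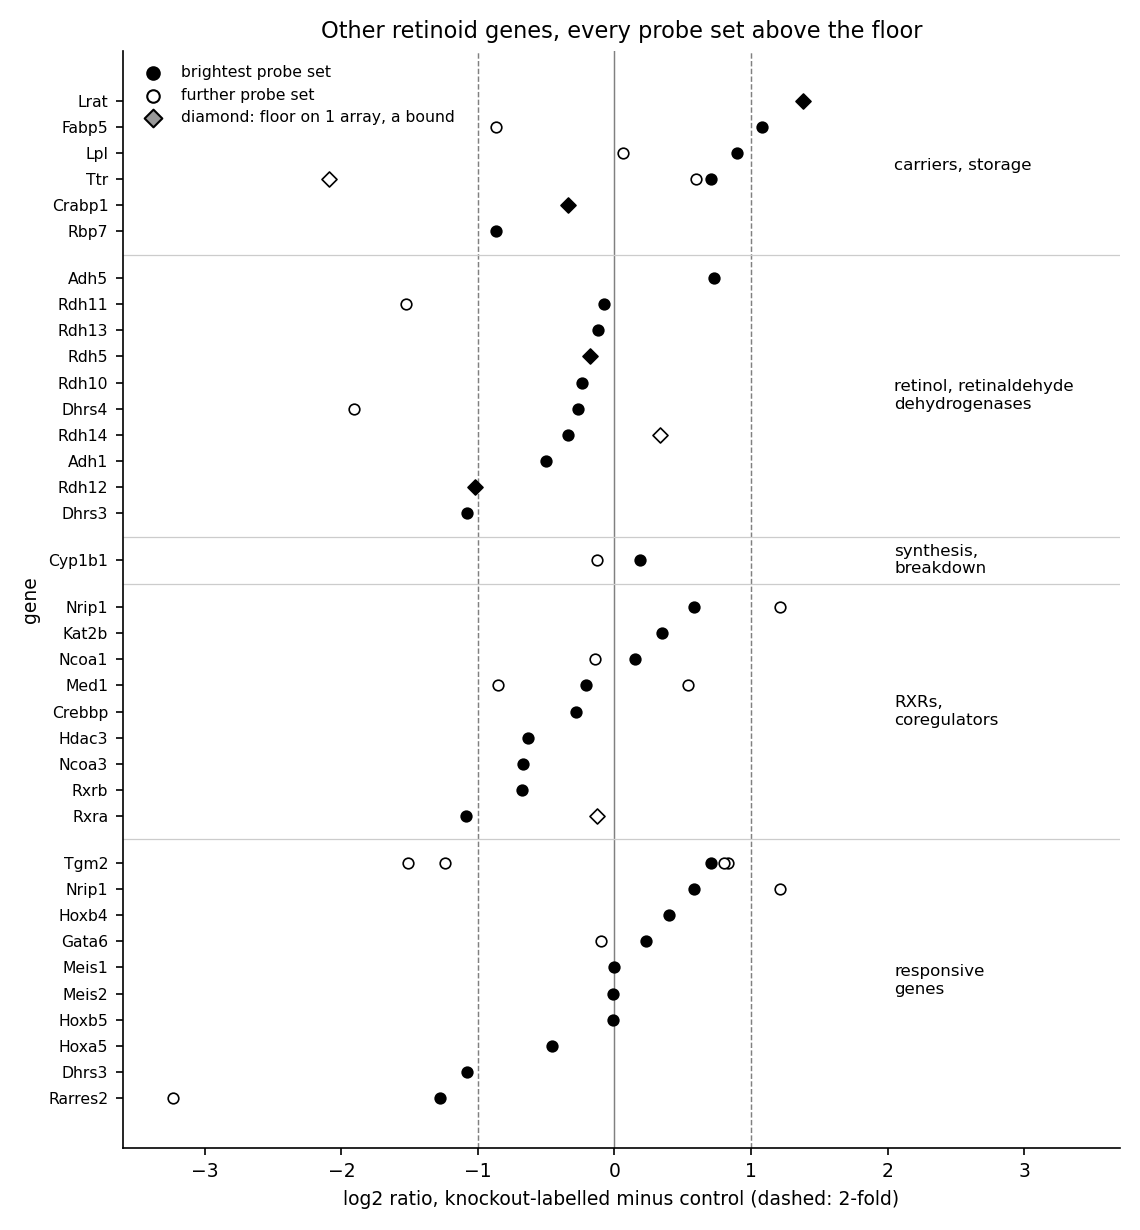
Log2 ratio, knockout-labelled minus control, of every probe set above the floor on at least 1 array for the genes of the 5 further retinoid lists (filled, the brightest probe set of a gene; open, its others; diamonds, bounds), 1 array per group, with 2-fold dashed. Most brightest probe sets lie between -1 and 1, and Fabp5, Ttr and Tgm2 are among the genes with probe sets on opposite sides of 0.

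Stromal markers were present, with 15 of 15 above the floor on at least 1 array. At their brightest probe sets, 9 were higher and 6 lower, with a median log2 ratio of 0.06. Their summed signal of 39004 on the knockout-labelled array and 29069 on the control array was led by the bright Col3a1, Vim and Dcn, and the sum over all genes was higher on the knockout-labelled array too, at 3244056 against 2860366 on the control array. Hoxa11 (-1.85) and Pgr (-0.83) had log2 ratios below 0. Other probe sets of Pdgfrb (-2.09 against 0.46), Col1a1 (-1.26 against 0.59) and Nr2f2 (0.70 and 0.81 against -0.54) lay across 0 from the brightest. Vim (0.66, -0.58 and 0.26) was split too, so these genes had no settled direction. Pdgfra gave -1.70 at its dimmer probe set, and Col3a1 and Vcan were above 0 at all of theirs. Aldh1a2 is also a gene of mesothelium, the lining of the abdominal organs, and of the mesothelial markers on the arrays 3 of 5 were at the floor on both, among them Msln and Upk3b. Their summed signal was 447.7 on the knockout-labelled array and 481.0 on the control array, most of it from Wt1, which uterine stroma also expresses. Gpm6a, the other mesothelial marker compared, read 45.5 on the knockout-labelled array and 16.3 on the control array, at least 2.3-fold higher. Rbp4 and Ttr are genes of the yolk sac, and 9 of 12 embryo and yolk sac markers were at the floor on both arrays, among them Afp and Apoa1, with summed signals of 682 on the knockout-labelled array and 459 on the control array that came mostly from Ttr itself. Of the epithelial markers, 15 of 17 were above the floor on at least 1 array. Endothelial markers had a median log2 ratio of -0.97, with 4 of 8 at least 2-fold lower and summed signals of 1662 on the knockout-labelled array and 2537 on the control array. Myeloid markers went both ways by large amounts at their brightest probe sets, with a median of -1.46. Of 10, 6 were at least 2-fold lower, among them Fcer1g (-2.93) and C1qa (-2.73), and 2 at least 2-fold higher, Ptprc (1.74) and C1qb (1.58). C1qb had no settled direction, as its other probe sets gave 0.54 and -2.68. The summed myeloid signals, 3540 on the knockout-labelled array and 4038 on the control array, do not show this spread. Smooth muscle and pericyte markers had a median of -0.88, with 3 of 8, Myl9, Des and Cnn1, at least 2-fold lower. The bright Acta2 (0.56) and Rgs5 (0.57) held the sums at 11681 on the knockout-labelled array and 11387 on the control array. Rgs5 had no settled direction, as its other probe sets gave 0.62, -0.42 and -0.76, and Myh11 had none either, at -0.78 and 1.21. The markers named here were picked out after their values were seen. In RNA of mixed cells, fewer cells of a type and less RNA per cell cannot be told apart, and the part of other cell types in these values was not tested.

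The arrays also differed in how evenly transcripts were covered, after labelling with the Affymetrix 3′ Express kit, which copies RNA from the poly-A tail. The signal at the 3′ end over that at the 5′ end was 16.0 on the knockout-labelled array and 2.27 on the control array for b-actin, and 7.25 on the knockout-labelled array and 1.49 on the control array for Gapdh. This difference runs along the genotype labels, so coverage and genotype cannot be told apart for any retinoid gene.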

How the data were processed

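RNA of uterine stromal cells, pooled over 3 animals per group, was hybridised to 2 Affymetrix Mouse Genome 430A 2.0 arrays of 1 colour, with 22690 probe sets each. The authors deposited MAS5 signal intensities on a linear scale, made in Affymetrix Expression Console version 1, per the submitters' processing notes. The sources used here do not give the scaling target. Both arrays have the same mean signal of 150.1 once 2% of probe sets is trimmed at each end, and this scaling was kept. Precision is limited by the number of arrays. Detection calls were not used.

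Names came from the platform annotation, updated by Entrez identifier in a RefSeq table (GRCm38.p6). Of 22626 probe sets that are not controls, 20380 had 1 symbol and were used, 691 had several and 1555 had none here. Signals were floored at 19.7 and put on a log2 scale, and a gene took its probe set with the highest mean. Of 12393 genes, 8593 were above the floor on at least 1 array and were compared, and 3800 were not.

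All member probe sets are given. Of each further list, up to 4 genes past 2-fold are named, or the 2 brightest where none passed, and partner genes of the members whatever their value, except that 1 item is not reported here. No gene was matched to the members by pattern, since 2 arrays give 1 ratio per gene. The members and lists were chosen with earlier results of these data known. Promoters were searched in RefSeq windows with Python 3.11.15. The alternatives were quantile normalization, median centring, removal of a loess trend (span 0.4), floors at the 25th and 60th percentiles, a pseudocount of 4.70, the median over probe sets, leaving out probe sets ending in _s_at or _x_at, and thresholds of 1.5-fold and 3-fold. The script that counts genes past 2-fold was tested on simulated data with known fold changes. Those changes were larger than 2-fold, in bright genes, with less scatter than the probe set SD. The simulation thus does not cover dim genes or changes near 2-fold.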

Additional observations from a re-analysis of the deposited data

How the results depend on the processing

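The count of members at least 2-fold higher was 0 under all 10 alternatives. The count at least 2-fold lower became 1, namely Stra6, with the floor at the 25th percentile and with the pseudocount, and was 0 under the other 8. The median of the members, -0.12 as reported, changed sign under 3 of the 8 alternatives that gave it. It was 0.06 with quantile normalization, 0.19 with median centring, which left out Stra6, and 0.03 with trend removal. The share of all genes past 2-fold, 19.2% as reported, was 17.8% after quantile normalization, 21.1% after median centring, 17.6% after trend removal, 15.3% with the floor at the 60th percentile, 15.5% with the pseudocount, 17.0% with the median over probe sets and 21.0% without _s_at and _x_at probe sets. It was 44.9% at 1.5-fold and 5.07% at 3-fold. For the further lists and the genes with a promoter repeat, 144 counts and medians were recomputed after the data had been seen. Among these, 21 counts of genes past 2-fold differed from those reported by over 1.5 times or between 0 and more than 0. The median of the carriers, 0.81 as reported, was 0.24 with the pseudocount, 0.29 with the median over probe sets and 0.28 without _s_at and _x_at probe sets. That of the X receptors and coregulators, -0.28 as reported, came to 0.00 with median centring, and that of the responsive genes, 0.00 as reported, to -0.01 without _s_at and _x_at probe sets. The causes were not tested. Signal near the floor limits Stra6, Rarb, Rara and Crabp2 most. No paired analysis was possible because each group has 1 array, and no replicate could be left out.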

Other observations

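The direct repeat with a spacer of 5 was in promoters of 31 genes, a list made after the data had been seen. Of these, 6 were on the arrays and 4 above the floor, so the list gives little beyond its members. Besides Cyp26a1 and Rarb, Blvrb, a biliverdin reductase, read 53.7 on the knockout-labelled array and 179.5 on the control array, a log2 ratio of -1.74, and Tnfsf13b, the B cell survival cytokine BAFF, read 45.8 on the knockout-labelled array and 75.2 on the control array, a log2 ratio of -0.72. One of the 4 was thus at least 2-fold lower, where 13.0% of all genes were.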
